A study of Mus musculus with 4 samples.

Results

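The heat shock chaperones described here are 9 genes of the 30905 in the gene table: Hspa1a, Hspa1b, Dnajb1, Hsph1, Hsp90aa1, Hspa8, Hspb1, Hspd1 and Hspe1. They were chosen by symbol, and each symbol stood in 1 row of the matrix. On GRCm38 they lie on chromosomes 17 (Hspa1a and Hspa1b), 8 (Dnajb1), 5 (Hsph1 and Hspb1), 12 (Hsp90aa1), 9 (Hspa8) and 1 (Hspd1 and Hspe1), all as protein-coding genes. The study profiled single cells of mouse heart grafts by droplet RNA-seq (10x Genomics), in which a unique molecular identifier (UMI) marks each captured transcript. There were 4 grafts, all taken on day 5 after transplantation. Each graft gave 1 sample. The 2 allogeneic grafts carried the strain label Balb/C and the 2 syngeneic grafts C57BL/6J. Every heart had been placed in the abdomen of a C57BL/6J recipient. By the study's methods the tissue was minced and digested with collagenases, dispase and DNase before capture. A graft therefore held donor cells together with recipient cells that had entered it, and these were not separated here.

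Heat shock proteins keep other proteins folded. Under stress the transcription factor HSF1 binds repeated GAA units upstream of its target genes and raises the inducible HSP70 genes from a low level, while HSC70 (Hspa8) is made at all times. HSP70 proteins work with J-domain partners such as Dnajb1, which bring clients and start ATP use, and with exchange factors such as Hsph1. In mitochondria, HSP60 (Hspd1) and its lid HSP10 (Hspe1) form a separate folding chamber. Enzymatic tissue dissociation is itself known to switch on both heat shock and immediate early genes.

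The deposited matrix merged the 4 libraries, and a barcode suffix (1 to 4) marked the library of each cell. No source used here pairs a suffix with a graft, so the libraries are called 1 to 4, and none is called allogeneic or syngeneic. Values are given per library, with no test between libraries. Of 53824 barcodes, 44626 passed the study's filter on detected genes and mitochondrial UMIs and 42395 remained without predicted doublets, more cells than the study's own count. The libraries held 13112 to 13907 barcodes and 96020294 to 166079145 UMIs, and the median kept cell had 5330, 4587, 8596 and 11880 UMIs in libraries 1 to 4. Across these libraries, 308 barcode sequences occurred more than once. Clustering gave 29 clusters, of which 24 were named by marker genes into 12 classes and 5 (4257 cells) stayed unnamed. For each class, 5 to 12 of its listed markers were highest in that class, and the weakest Schwann-like marker stood at 1.74 CPM (counts per 1000000 UMIs). The clusters followed the libraries closely, since 13 of the 29 drew over 90% of their cells from 1 library. Endothelial-like cells, for example, fell mainly into clusters 1 and 2 in library 1, 3 and 8 in library 2, 2 and 1 in library 3, and 21 in library 4.

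Upstream sequences are shown for the inducible pair, the chaperonin pair and Hspb1, whose levels followed different patterns over the classes. RefSeq (GRCm38.p6) gave windows for 7 of the 9 genes. In 6 of the 7, the 250 bases before a start held a pair of inverted heat shock units, GAANNTTC or TTCNNGAA, searched on both strands (these motifs read the same on either strand and can overlap). The exception was Dnajb1. Among all 32851 windows of this length, 6.69% held GAANNTTC, 7.17% held TTCNNGAA and 0.466% held 3 alternating units in a row. These shares are per window and per motif, whereas a gene was counted if any of its windows held either motif (10 windows in all). Hspa1a and Hspa1b are neighbours on chromosome 17, and their windows (chr17:34972157-34972406 and chr17:34959239-34959488, both minus strand) are shown 5′ to 3′ with the motif in capitals.
Hspa1a: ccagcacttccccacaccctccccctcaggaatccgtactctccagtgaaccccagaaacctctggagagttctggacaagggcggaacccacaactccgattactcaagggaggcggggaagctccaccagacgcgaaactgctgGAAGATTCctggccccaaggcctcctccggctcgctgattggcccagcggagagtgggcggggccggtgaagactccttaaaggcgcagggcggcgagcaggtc
Hspa1b: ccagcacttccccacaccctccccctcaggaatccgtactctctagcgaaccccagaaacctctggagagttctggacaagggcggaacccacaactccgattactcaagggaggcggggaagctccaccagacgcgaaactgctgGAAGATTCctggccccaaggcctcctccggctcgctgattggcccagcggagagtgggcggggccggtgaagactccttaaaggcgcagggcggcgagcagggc
These windows were identical at 247 of 250 bases (98.8%). The 3 differences, counted from 1 at the 5′ end with the Hspa1a base first, were C44T, T47C and T249G, and the motif began 104 bases before the start in both.

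Hspd1 and Hspe1 lie head to head on chromosome 1. A stretch of 215 bases (chr1:55087933-55088147, shown on the plus strand, which Hspe1 reads) separated a RefSeq start of Hspd1 from that of Hspe1. Another RefSeq start of Hspd1 lay within Hspe1, so the annotated genes overlap, and its window (chr1:55088244-55088493) held no motif. In the stretch shown, the capitals mark 3 overlapping motifs, which together make 4 alternating units.
Hspd1-Hspe1: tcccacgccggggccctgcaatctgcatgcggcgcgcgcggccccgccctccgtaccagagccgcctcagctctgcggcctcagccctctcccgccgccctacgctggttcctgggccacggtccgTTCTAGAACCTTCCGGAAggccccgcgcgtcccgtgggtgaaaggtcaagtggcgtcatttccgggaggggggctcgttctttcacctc
The window of Hspb1 (chr5:135887669-135887918, plus strand) held 2 copies of GAANNTTC, 117 and 97 bases before the start, and is shown as the only one of these windows with 2 separate copies.
Hspb1: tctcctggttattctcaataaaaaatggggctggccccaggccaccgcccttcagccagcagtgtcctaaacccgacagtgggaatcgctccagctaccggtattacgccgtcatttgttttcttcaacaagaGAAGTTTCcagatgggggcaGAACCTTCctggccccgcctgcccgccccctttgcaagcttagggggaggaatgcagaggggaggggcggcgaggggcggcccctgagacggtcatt
A match only says that these letters are present. Whether reads of the near-identical Hspa1a and Hspa1b can be told apart depends on the end of the transcript that was read. Their annotated transcripts were 85.3% identical over their whole length, but their last 300 bases only 49.8%, and none of the 411 stretches of 90 bases in the last 500 of Hspa1a occurred in the last 500 of Hspa1b. Reads from further upstream could still fall on sequence that both genes share.

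Levels are the UMIs of a gene per 1000000 non-mitochondrial UMIs of a group of cells (CPM), and ranges in parentheses are 95% Poisson intervals, which cover counting error only. The inducible HSP70 genes were highest in pericyte-like and endothelial-like cells over all libraries together. Over all libraries, Hspa1a stood at 1897 CPM (1876 to 1918) in pericyte-like cells and 1658 CPM (1650.0 to 1666) in endothelial-like cells. Lower levels followed in Schwann-like (803 CPM), smooth muscle-like (754 CPM) and lymphatic endothelial-like cells (575 CPM). Fibroblast-like, macrophage-like, B-like and granulocyte-like cells followed between 366 and 313 CPM, each neighbour in that order overlapping the next. Cardiomyocyte-like cells had 244 CPM and T/NK-like cells 75.03 CPM (71.7 to 78.5). Hspa1b kept the same first and last places, from 1168 CPM (1152 to 1184) in pericyte-like to 52.00 CPM (49.2 to 54.9) in T/NK-like cells. Erythroid-like cells were lower for 8 of the 9 genes, among them Hspa1a at 28.9 CPM, with hemoglobin transcripts at 913091 CPM of their UMIs, and are left out of the orders that follow.

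All 9 genes differed at least 2-fold between classes, but so did 6692 of the 6694 genes tested (100% when rounded), and 97.7% without erythroid-like cells, so that count is no result about the chaperones. Over the 9 genes the median ratio of the highest to the lowest class was 10.7 without erythroid-like cells (10 CPM added to both levels), beside 6.33 over all genes tested. Hspb1 spanned the widest range and Hspa8 the narrowest. Because the classes drew on the libraries unequally, with 5861 of 7535 macrophage-like cells from library 4, the order was also read within each library. Pericyte-like cells were highest for Hspa1a in libraries 1 and 3, macrophage-like cells in library 2 and endothelial-like cells in library 4. The lead in library 2 rests on 151 named macrophage-like cells, with endothelial-like cells next at 2275 CPM. Another 858 cells of library 2, in unnamed cluster 15 with 8 of the 12 macrophage markers, had 645 CPM and were not ranked. The low end was cardiomyocyte-like cells in library 1 (80.1 CPM), T/NK-like cells in library 2 (227 CPM), granulocyte-like cells in library 3 (191 CPM, overlapping B-like cells) and B-like cells in library 4 (22.3 CPM). Pericyte-like cells had under 50 cells in library 4 and were not ranked there.

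**Figure D1:**
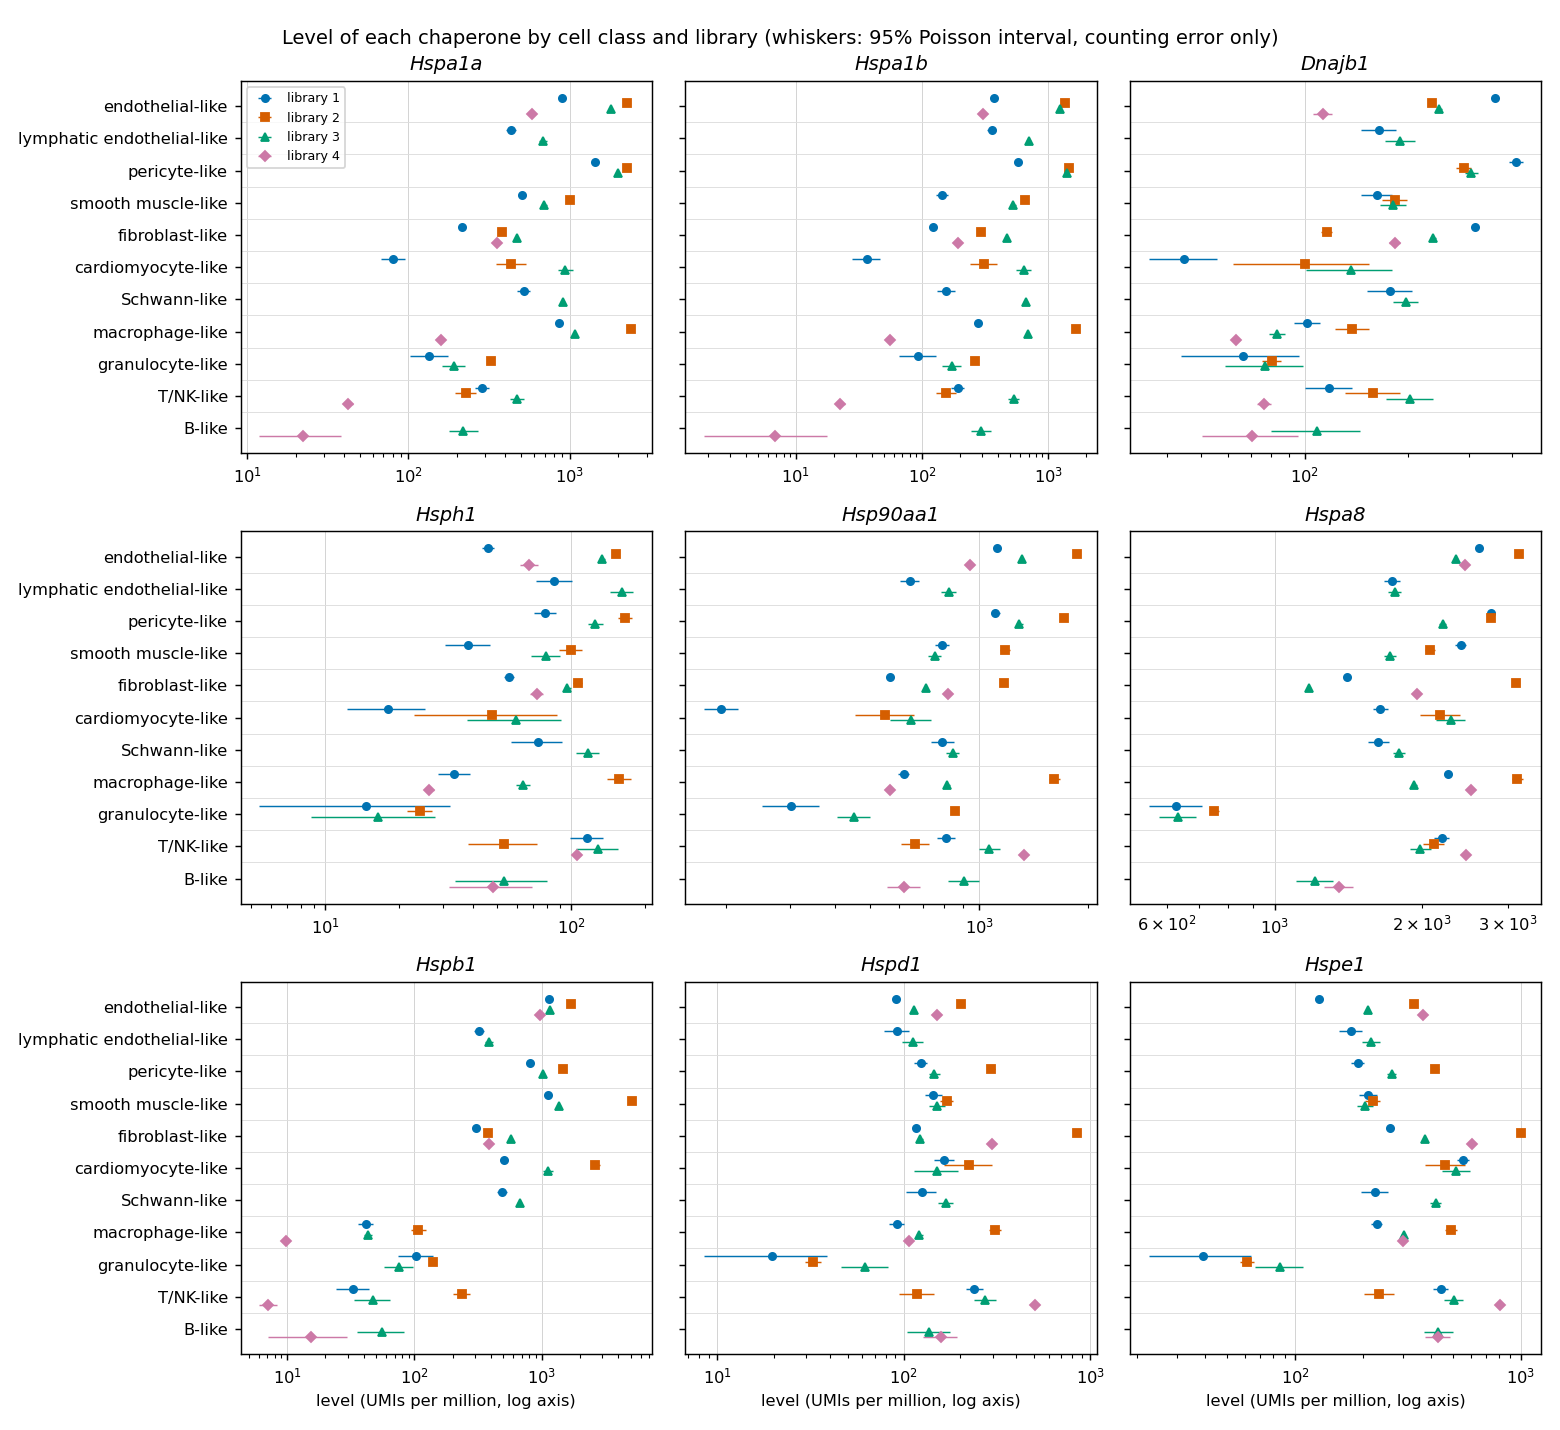
Each panel plots 1 chaperone, with its level in CPM on a log axis against the cell class, 1 symbol per library with at least 50 cells of the class and whiskers for the 95% Poisson interval. Hspa1a and Hspa1b of library 4 sit far to the left in macrophage-like, T/NK-like and B-like cells, while Hspa8 of the same groups lies within the range of the other libraries or above it.

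Within a class, the inducible pair varied between libraries more than most genes did. In endothelial-like cells Hspa1a stood at 901, 2275, 1802 and 588 CPM in libraries 1 to 4, and Hspa1b at 371, 1347, 1229 and 303 CPM. Libraries 2 and 3 were high and libraries 1 and 4 low for both genes. Cells of library 2 lay mainly in clusters 3 and 8, with Hspa1a at 2486 and 922 CPM, and those of library 4 in cluster 21. Since these clusters came almost wholly from 1 library each, libraries 2 and 4 cannot be told apart from their clusters. The highest and lowest library differed 3.87-fold (counting interval 3.76 to 3.98) for Hspa1a and 4.44-fold (counting interval 4.27 to 4.63) for Hspa1b. Genes of at least 20 CPM in a class were tested for a ratio of at least 2 between its libraries, with 10 CPM added to both levels and without a p-value. In these cells 6 of the 9 chaperones were at least 2-fold apart, beside 22.2% of all genes tested, and their median ratio was 2.75 beside 1.49 for all genes. Library 2 was highest for 7 of the 9, while it was highest for 26.8% of all genes tested.

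Macrophage-like cells had the widest spread of Hspa1a among the classes that all 4 libraries hold. Hspa1a stood at 859.5, 2413, 1083 and 159 CPM in libraries 1 to 4 and Hspa1b at 276, 1661, 686 and 55.6 CPM. Library 2 thus exceeded library 4 by 15.2-fold (counting interval 14.7 to 15.7) for Hspa1a and 29.9-fold (counting interval 28.6 to 31.2) for Hspa1b. In these cells 1.62% and 0.746% of the genes tested were as far apart. In all, 7 of the 8 chaperones tested were at least 2-fold apart, beside 26.7% of all genes, and all 9 were highest in library 2, which held only 151 macrophage-like cells and was highest for 36.6% of genes. Hspb1, at 17.6 CPM, was too low to be tested here. A further 858 cells of library 2 lay in unnamed cluster 15, which carried 8 of the 12 macrophage markers, and are not counted here. Their Hspa1a stood at 645 CPM and Hspa1b at 396 CPM, both below the macrophage-like cells of library 3. The lead of library 2 was therefore read for the named cells only. So was the widest spread, since without library 2 Hspa1a ran from 159 to 1083 CPM here and from 42.3 to 473 CPM in T/NK-like cells. Macrophage-like cells of library 4 formed clusters 4, led by Ly6i, Ms4a4c and Ly6c2, and 5, led by Ccl8, and those of the other libraries formed cluster 11, led by Fcrls and Ms4a7. Library 4 and its clusters cannot be told apart here. Clusters 4 and 5 had 173 and 261 CPM of Hspa1a plus Hspa1b, and cluster 11 had 1819 CPM. Within cluster 11 Hspa1a still differed between libraries 1, 2 and 3, at 874, 2427 and 1077 CPM. With the clusters kept but without library 2, 3 of the 8 chaperones tested were at least 2-fold apart, beside 15.4% of all genes, and without library 4 7 of 9, beside 14.6%.

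Fibroblast-like cells showed a smaller spread of the pair, with Hspa1a at 215, 380.0, 472 and 353 CPM and Hspa1b at 121, 291, 469 and 193 CPM. Library 3 was highest and library 1 lowest for both. Fibroblast-like cells of libraries 2 and 4 lay almost wholly in clusters 17 and 22, so these libraries cannot be told apart from their clusters. Here 7 of the 9 chaperones were at least 2-fold apart beside 39.2% of all genes, but for Hspa1a 34.2% of the genes tested were as far apart. With the clusters kept but without library 2, 4 of the 9 were that far apart, beside 21.5% of all genes, and without library 1 4 of the 9, beside 31.5%.

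Lymphocytes of library 4 held less inducible HSP70 than those of the other libraries. T/NK-like cells had 288, 227, 473 and 42.3 CPM of Hspa1a and 192, 155, 533 and 22.6 CPM of Hspa1b in libraries 1 to 4. The cells of all 4 libraries lay in cluster 9, to which library 4 gave 1408 of 1868 cells. Clustered again, however, 7 of its 10 subclusters drew over 90% of their cells from 1 library (library 4 in 6 of them, library 2 in the other), so library 4 and its T/NK-like subclusters cannot be told apart. The chaperones were at least 2-fold apart in 6 of 8 cases, beside 34.6% of all genes. In B-like cells only libraries 3 and 4 had 50 cells or more. Hspa1a stood at 219 CPM in library 3 and 22.3 CPM in library 4, and Hspa1b at 293 and 6.87 CPM, while Hspe1 was level at 432 and 429 CPM. In B-like cells 3 of the 9 chaperones (Hspa1a, Hspa1b and Hspb1) were at least 2-fold apart, beside 8.46% of all genes.

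The remaining classes were compared between 2 or 3 libraries. In cardiomyocyte-like cells Hspa1a stood at 80.1, 435 and 942 CPM in libraries 1 to 3, and 6 of the 9 chaperones were at least 2-fold apart beside 34.4% of all genes. This class was shallow, at a median of 1301 UMIs, and its pooled levels were unstable. Hspa1a fell from 244 to 44.6 CPM when cells were clustered anew without library 2. Hspa1b fell from 152 to 46.8 CPM with only cells of at least 1000 UMIs. In pericyte-like cells Hspa1a stood at 1430.0, 2270.1 and 2007 CPM in libraries 1 to 3. There 3 of 9 chaperones were at least 2-fold apart beside 11.2% of all genes. Smooth muscle-like cells gave 509, 999 and 697 CPM, with 3 of 9 beside 12.4%. Granulocyte-like cells gave 135, 328 and 191 CPM, with 4 of 9 chaperones beside 33.7% of all genes. Of these granulocyte-like cells, those of libraries 1 and 3 lay mainly in cluster 25 (84 and 247 cells) and those of library 2 in clusters 7 and 23 (2347 and 392 cells), so library 2 and its clusters cannot be told apart. Schwann-like cells had 518 CPM in library 1 and 907 in library 3, with 1 of 9 beside 6.09%, and lymphatic endothelial-like cells 435 and 684 CPM, with 0 of 9 beside 2.37%.

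Libraries 1 and 3 shared 10 classes, the most of any pair. Hspa1b was higher in library 3, with counting intervals apart, in 10 of the 10, and Hspa1a in 9 of the 10. Hspa8 went the other way more often, being higher in library 1 in 6 and in library 3 in 2 of the 10. The same count over all genes was not made, and large pooled counts give narrow intervals. In Schwann-like and lymphatic endothelial-like cells, compared between these libraries alone, library 3 was higher for 50.1% and 54.8% of all genes tested. The difference in the pair was also seen within single clusters. In endothelial-like cluster 1, Hspa1a stood at 979.7 CPM in the cells of library 1 and 2276 CPM in those of library 3, and in cluster 2 at 536 and 1755 CPM. Fibroblast-like cluster 10 gave 165 and 397 CPM. The libraries also differed in other readouts: immediate early genes took 2.57%, 1.28%, 1.48% and 0.774% of UMIs in libraries 1 to 4, and the median mitochondrial share was 7.13%, 4.66%, 7.2% and 4.06%. Their part in the HSP70 levels was not tested.

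**Figure D2:**
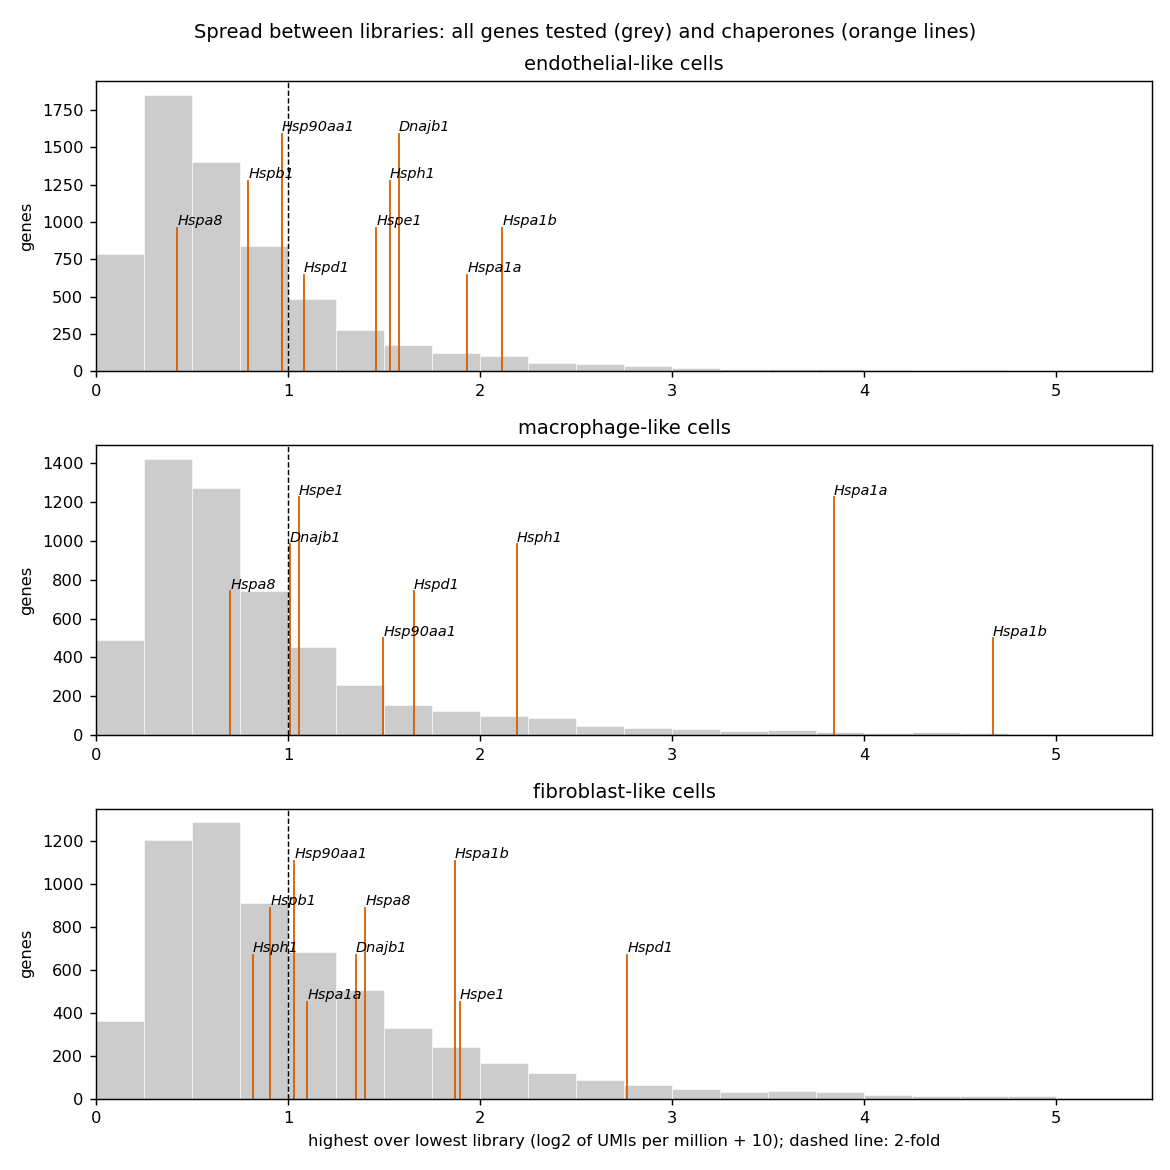
Histograms of the ratio of the highest to the lowest library (log2 of CPM + 10) for all genes tested in endothelial-like, macrophage-like and fibroblast-like cells, with each chaperone as an orange line and 2-fold as a dashed line. Hspa1a and Hspa1b lie at 3.84 and 4.67 in macrophage-like cells, far into the tail, and Hspd1 is the chaperone farthest out in fibroblast-like cells at 2.77.

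The balance within the inducible pair also differed between libraries. Hspa1b made up 29.1, 37.2, 40.6 and 34.00% of the pair's UMIs in endothelial-like cells of libraries 1 to 4. In macrophage-like cells the shares were 24.3, 40.8, 38.8 and 25.9%, and in fibroblast-like cells 36.03, 43.4, 49.8 and 35.4%. Library 1 gave the lowest share in endothelial-like and macrophage-like cells and library 3 the highest in endothelial-like and fibroblast-like cells. In macrophage-like cells the share of library 1 overlapped that of library 4. The 95% Clopper-Pearson interval was 28.6 to 29.7% for endothelial-like cells of library 1 and 40.3 to 40.8% for those of library 3. Over the 10 classes that both hold, the share was higher in library 3 in 8, with intervals apart, and overlapped in 2. Library 3 was also above library 4 in 5 of 5 shared classes. Over classes, the pooled share ran from 33.6% in macrophage-like to 49.3% in lymphatic endothelial-like cells. The classes drew on the libraries unequally, and within a library the lowest share was in smooth muscle-like cells in library 1 (22.2%), endothelial-like cells in library 2, macrophage-like cells in library 3 and B-like cells in library 4 (23.5%), each overlapping at least 1 other class. The near-identical coding sequence could move UMIs between the genes, and this was not tested.

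Dnajb1, the J-domain partner that starts the HSP70 cycle, followed another order of libraries than the inducible pair in endothelial-like, pericyte-like and fibroblast-like cells. In endothelial-like cells it stood at 356, 233, 245 and 113 CPM in libraries 1 to 4, so that library 1, low for the inducible pair, was the highest, 3.16-fold (counting interval 2.96 to 3.38) above library 4. Pericyte-like cells gave 409, 289 and 304 CPM in libraries 1 to 3 and fibroblast-like cells 311, 116, 236 and 182 CPM in libraries 1 to 4, again with library 1 on top. Fibroblast-like cells of library 1 lay mainly in cluster 10 and those of library 3 in cluster 6. Dnajb1 stood at 373 CPM in library 1 and 368 CPM in library 3 within cluster 10, and at 202 and 226 CPM within cluster 6. The lead over library 3 was thus not kept within both clusters. Immediate early genes, which answer growth and stress signals within minutes, summed to 33941, 17151, 19249.6 and 11774 CPM in endothelial-like and 23585, 8869.5, 12509 and 8872 CPM in fibroblast-like cells of the same libraries. Library 1 was the highest there too, and their part in the Dnajb1 levels was not tested. In the other 8 classes compared, the highest and the lowest library of Dnajb1 were those of Hspa1a. Macrophage-like cells of library 2 exceeded those of library 4 by 2.17-fold (counting interval 1.93 to 2.44), and T/NK-like cells of library 3 those of library 4 by 2.65-fold (counting interval 2.24 to 3.11). Cardiomyocyte-like cells of library 3 exceeded those of library 1 by 3.05-fold (counting interval 2.09 to 4.4). In the remaining 5 the counting interval of the ratio included 1. Over classes Dnajb1 was highest in pericyte-like cells, at 324 CPM (316 to 333), and lowest in macrophage-like (69.2 CPM) and cardiomyocyte-like cells (63.9 CPM), whose intervals overlapped. Pericyte-like cells led in libraries 1 to 3 and fibroblast-like cells in library 4.

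Hsph1, the HSP110 exchange factor, followed the inducible pair rather than Dnajb1 in endothelial-like cells. It stood at 45.9, 151, 133 and 67.1 CPM there in libraries 1 to 4, high in libraries 2 and 3, and library 2 exceeded library 1 by 3.3-fold (counting interval 3.09 to 3.52). In macrophage-like cells the levels were 33.4, 157, 63.9 and 26.5 CPM, 5.91-fold (counting interval 5.25 to 6.63) from the highest to the lowest. T/NK-like cells differed, since library 4, the lowest for Hspa1a, kept 106 CPM of Hsph1 beside 115, 53.4 and 128 CPM in libraries 1 to 3. Over classes Hsph1 ranged from 125 CPM (114 to 137) in lymphatic endothelial-like and 124 CPM in pericyte-like cells, which overlapped, down to 23.4 CPM in granulocyte-like cells. Granulocyte-like and cardiomyocyte-like cells overlapped at the low end. This order was not stable. T/NK-like cells were highest for Hsph1 in library 1 (overlapping lymphatic endothelial-like cells) and library 4. Pericyte-like cells were highest in library 2 (overlapping macrophage-like cells) and lymphatic endothelial-like cells in library 3. Lymphatic endothelial-like cells stayed highest in 5 and granulocyte-like cells lowest in 7 of 14 other ways of processing.

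Within a library, the inducible genes were detected together in the same endothelial-like cells. To hold depth equal, each cell was thinned to 1000 UMIs, which left out 1886 of 14681 endothelial-like and 74 of 7535 macrophage-like cells. In endothelial-like cells of library 3, Hspa1b was detected in 68.6% (66.2 to 70.9) of the cells with a UMI of Hspa1a and 15.5% (14.04 to 17.2) of those without (95% Clopper-Pearson intervals). In libraries 1, 2 and 4 the shares were 37.97% against 9.93%, 64.2% against 19.2% and 42.5% against 8%. Hsp90aa1, the stress-inducible HSP90 of the cytosol, was found in 72.98% against 40.3% in library 3, and Hsph1 in 16.8% against 3.69%. Dnajb1 gave 25.2% against 11.1% in library 3. In library 4, where only 186 thinned cells had an Hspa1a UMI, the intervals overlapped for Hsp90aa1 (65.1% against 53.1%), Dnajb1 (10.8% against 8.89%) and Hsph1 (6.99% against 5.11%). The shares lay closer together for the mitochondrial chaperonin. Hspd1 was found in 11.9% against 7.8% of cells with and without Hspa1a in library 3, and in 9.91% against 8.65% in library 1, where the intervals overlapped. Hspe1 was found in 23.3% against 16.9% of cells with and without Hspd1 in library 3, and in macrophage-like cells of that library in 21.1% against 24.03%, with overlapping intervals. The cells of a class came from several clusters, and cells of 1 library are not replicates. Before thinning, 64.5% of endothelial-like and 26.1% of T/NK-like cells had a UMI of Hspa1a, at median depths of 4706 and 8454 UMIs, and after thinning 42.4% and 7.04%. No cell type here is known to lack these genes, so the share that free RNA gives was not measured.

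**Figure D3:**
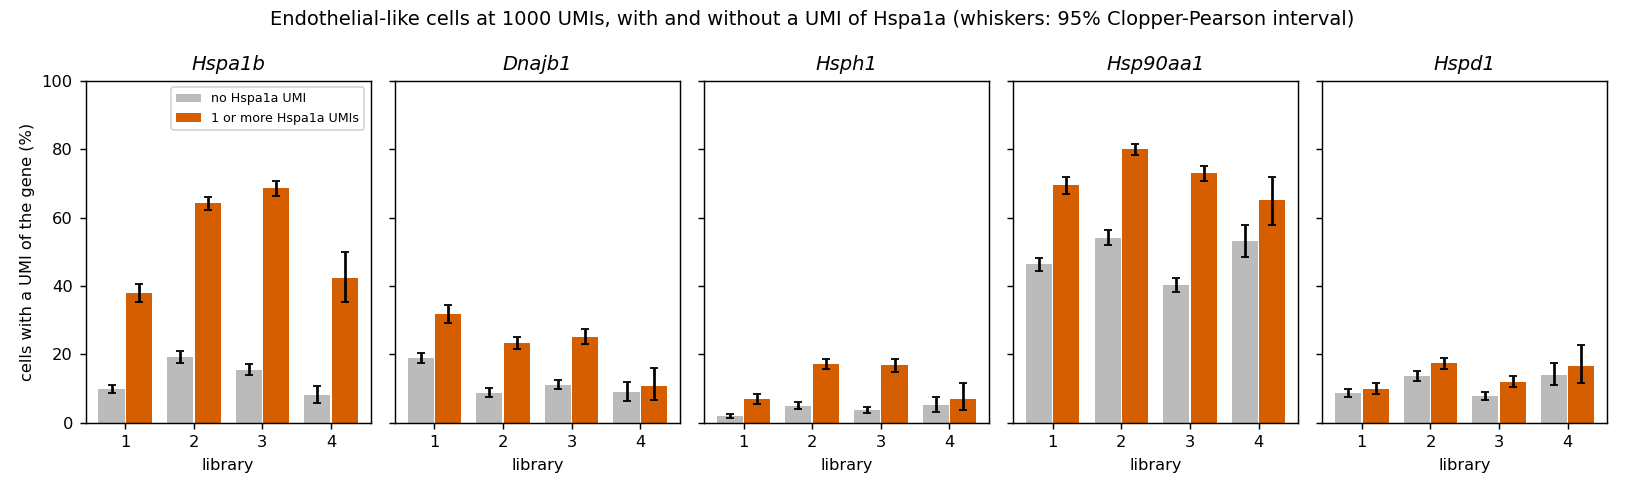
Share of endothelial-like cells with a UMI of each of 5 chaperones after thinning to 1000 UMIs, by library, in cells without (grey) and with (orange) a UMI of Hspa1a, with whiskers for the 95% Clopper-Pearson interval. Hspa1b is more often present beside Hspa1a in all 4 libraries and Hsp90aa1 in libraries 1 to 3 with intervals apart, whereas the intervals of Hspd1 overlap in libraries 1 and 4.

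The inducible transcripts were concentrated in fewer cells than those of Hspa8. In thinned endothelial-like cells the 10% of cells with the most Hspa1a plus Hspa1b carried 63.1%, 48.1%, 53.7% and 57.1% of the pair's UMIs in libraries 1 to 4. For Hspa8 in the same cells the shares were 27.97%, 28.6%, 31.4% and 25.4%. The Fano factor (variance over mean, 1 for pure counting) was 8.89 for the pair and 1.98 for Hspa8 in library 3, at means of 2.79 and 2.14 UMIs per cell. Granulocyte-like cells of library 2 were the most uneven of the groups measured, with a Fano factor of 27.3 for the pair and up to 96 UMIs in a cell. They came mainly from cluster 7, with 434 CPM of the pair, and cluster 23 (395 cells led by Slc2a3, Hcar2 and Tnfrsf23), with 3683 CPM.

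Hspa8, which helps nascent chains fold and uncoats vesicles in unstressed cells, varied least among the 9 over the classes. It was highest in endothelial-like cells, at 2698 CPM (2689 to 2708), followed by pericyte-like cells at 2549.5 CPM and by macrophage-like cells at 2441 CPM, which overlapped T/NK-like cells. Within libraries, endothelial-like cells led in libraries 2 and 3, overlapping at least 1 other class in both, pericyte-like cells in library 1 and macrophage-like cells in library 4. Granulocyte-like cells were lowest, at 741 CPM (726 to 756). In endothelial-like cells it stood at 2612, 3159, 2352 and 2451 CPM in libraries 1 to 4 and in macrophage-like cells at 2258, 3138, 1929 and 2522 CPM. Its highest and lowest libraries differed 1.34-fold and 1.63-fold, and 66.03% and 44.7% of the genes tested were as far apart. Fibroblast-like cells were the exception, with 1403, 3123, 1175 and 1957 CPM and 2.66-fold (counting interval 2.63 to 2.69) between libraries 2 and 3. Those of library 2 lay mainly in cluster 17, at 3145 CPM, and those of library 3 mainly in cluster 6, at 1171 CPM. Library 2 and its cluster cannot be told apart.

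Hsp90aa1, which completes the folding of kinases and receptors handed on by HSP70, was highest in endothelial-like cells, at 1426 CPM (1419 to 1433). Pericyte-like and T/NK-like cells followed at 1371 and 1273 CPM, and cardiomyocyte-like cells were lowest, at 311 CPM (289 to 334). Within libraries, endothelial-like cells led in libraries 1 to 3, overlapping pericyte-like cells in libraries 1 and 3, and T/NK-like cells led in library 4. Cardiomyocyte-like cells were lowest in library 1 (194 CPM) and library 2 (550 CPM, overlapping T/NK-like cells). Granulocyte-like cells were lowest in library 3 and macrophage-like cells, overlapping B-like cells, in library 4. Endothelial-like cells had 1121, 1860.1, 1309.8 and 945 CPM in libraries 1 to 4 and macrophage-like cells 619, 1613, 817 and 566 CPM, with library 2 highest in both. T/NK-like cells ran 810.4, 665, 1066 and 1330.2 CPM, with library 4 highest. Its constitutive paralog Hsp90ab1, which belongs to the HSP90 list and not to the 9, stood at 2743 CPM in endothelial-like and 3241 CPM in T/NK-like cells.

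Hspb1 (HSP27), a small heat shock protein that binds actin filaments and unfolded proteins, was highest in classes of muscle and blood vessel wall. It stood at 2745 CPM (2710.4 to 2780.5) in smooth muscle-like, 1331 CPM in endothelial-like, 1108 CPM in pericyte-like and 1028 CPM in cardiomyocyte-like cells. Schwann-like and fibroblast-like cells followed at 698 and 435 CPM, above lymphatic endothelial-like cells at 358 CPM. Macrophage-like and T/NK-like cells had 17.6 CPM (16.9 to 18.4) and 16.5 CPM (14.97 to 18.2), which overlapped. The range between smooth muscle-like and T/NK-like cells was 166-fold. That range rests on library 4, since without it T/NK-like cells, clustered anew, had 87.98 CPM of Hspb1 and were no longer the lowest class. At 1000 UMIs, 71.3% of smooth muscle-like and 2.6% of T/NK-like cells had a UMI of Hspb1, and without thinning 96.7% and 13.8%. Library 2 was the highest in muscle. Smooth muscle-like cells had 1129, 5162 and 1373 CPM in libraries 1 to 3 and cardiomyocyte-like cells 506, 2643 and 1122 CPM. In endothelial-like cells, which led in library 4 and in library 1 (there overlapping smooth muscle-like cells), the libraries were closer, at 1143, 1697, 1172 and 976 CPM. The T/NK-like cells of library 2 had 235 CPM beside 33.1, 47.2 and 7.1 CPM in libraries 1, 3 and 4. The granulocyte transcripts S100a8 and S100a9 summed to 2089 CPM in the same T/NK-like cells of library 2 and to 22.5, 31.04 and 52.3 CPM in the others. Granulocyte-like cells of library 2 had 139 CPM of Hspb1 themselves, and endothelial-like cells of that library 1697 CPM. T/NK-like subcluster 6, with 157 cells of library 2, was led by Fabp4, S100a8 and Cd36 and had 237 CPM of Hspb1. The part of RNA from other cells was not tested.

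The mitochondrial chaperonin genes followed neither the inducible pair nor the vessel wall. Hspd1 and Hspe1 were highest in T/NK-like cells, at 471 CPM (463 to 480.0) and 760.3 CPM (749.6 to 771), and lowest in granulocyte-like cells, at 34.3 CPM (31.2 to 37.7) and 62.1 CPM (57.9 to 66.6). Cardiomyocyte-like cells came next for Hspe1 (546 CPM), and fibroblast-like cells for Hspd1 (293 CPM). Endothelial-like cells, rich in HSP70, had only 142 and 246 CPM. Cardiomyocyte-like cells led for Hspe1 in libraries 1 and 3, overlapping T/NK-like cells in library 3. Within single libraries T/NK-like cells led for Hspd1 in libraries 1, 3 and 4, and fibroblast-like cells in library 2. For Hspe1, T/NK-like cells led in library 4 only, which gave 1408 of their 1868 cells. Clustered anew without library 4, fibroblast-like cells were highest for Hspd1 and cardiomyocyte-like cells for Hspe1. Granulocyte-like cells were lowest for both genes in libraries 1 to 3 and macrophage-like cells in library 4, which held 7 granulocyte-like cells. A further 780 cells of library 4 lay in unnamed cluster 19, which carried 6 of the 8 granulocyte markers. They had 66.4 CPM of Hspd1 and 138 CPM of Hspe1, below the macrophage-like cells of that library (106 and 302 CPM).

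Fibroblast-like cells of library 2 had the highest chaperonin level of any group. Hspd1 stood at 116, 845, 123 and 297 CPM in libraries 1 to 4 and Hspe1 at 263, 1005, 377 and 605 CPM. Library 2 exceeded library 1 by 7.31-fold (counting interval 7.04 to 7.59) and 3.82-fold (counting interval 3.72 to 3.93), and 4.66% and 12.1% of the genes tested were as far apart. Nearly all of them (880 of 901) formed cluster 17, led by Prg4, Cxcl5 and Ptx3, which carried 4 of the 9 fibroblast markers, and no other library added more than 3 cells to it, so library and cluster cannot be told apart. Unnamed cluster 16, also from library 2 and led by some of the same genes, had 910.0 CPM of Hspd1 plus Hspe1 beside 1866 CPM in cluster 17. Cycling genes summed to 29.5 CPM in fibroblast-like cells of library 2 and to 33.8, 195 and 252 CPM in libraries 1, 3 and 4. Only 1 of the 8 cycling genes reached 20 CPM in fibroblast-like cells, and the part of cycling was not tested. The cytosolic chaperonin TRiC was high as well, at 791, 3022, 871 and 1431 CPM in libraries 1 to 4.

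T/NK-like cells were clustered again to see where Hspd1 and Hspe1 lay. The 10 subclusters were left unnamed and are described by their leading genes. Subcluster 4 (198 cells, 197 of them from library 4), led by Ifng, Ccl3, Zbtb32 and Xcl1, had the highest levels, with Hspd1 at 873 CPM (839 to 907) and Hspe1 at 1210.1 CPM (1171 to 1251). It also had the lowest Hspa1a, at 18.4 CPM (13.8 to 23.97), and the highest Hspa1a was 407 CPM in subcluster 7, led by hemoglobin genes. Subcluster 1 (375 cells), led by Rrm2 and Ccnb1, followed with 628 and 958 CPM. The cycling sum was 2495 CPM among the cells of subcluster 1 and 225 CPM among those of subcluster 4. Subcluster 9 (58 cells, with Ncr1 at 192 CPM) had the highest cycling sum, 3519 CPM, and 255 and 484 CPM of the chaperonin genes. Hsp90aa1 peaked in subclusters 1 and 4, with 1695 and 1669 CPM. For Hsph1 the peak was 164 CPM in subcluster 4. Subcluster 5, with Foxp3 and Cd4 among its leading genes, had 160.4 and 405 CPM. The median cell of subclusters 1, 4 and 5 had 27447, 13190.5 and 7557 UMIs, and the parts of depth and cycling were not tested.

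**Figure D4:**
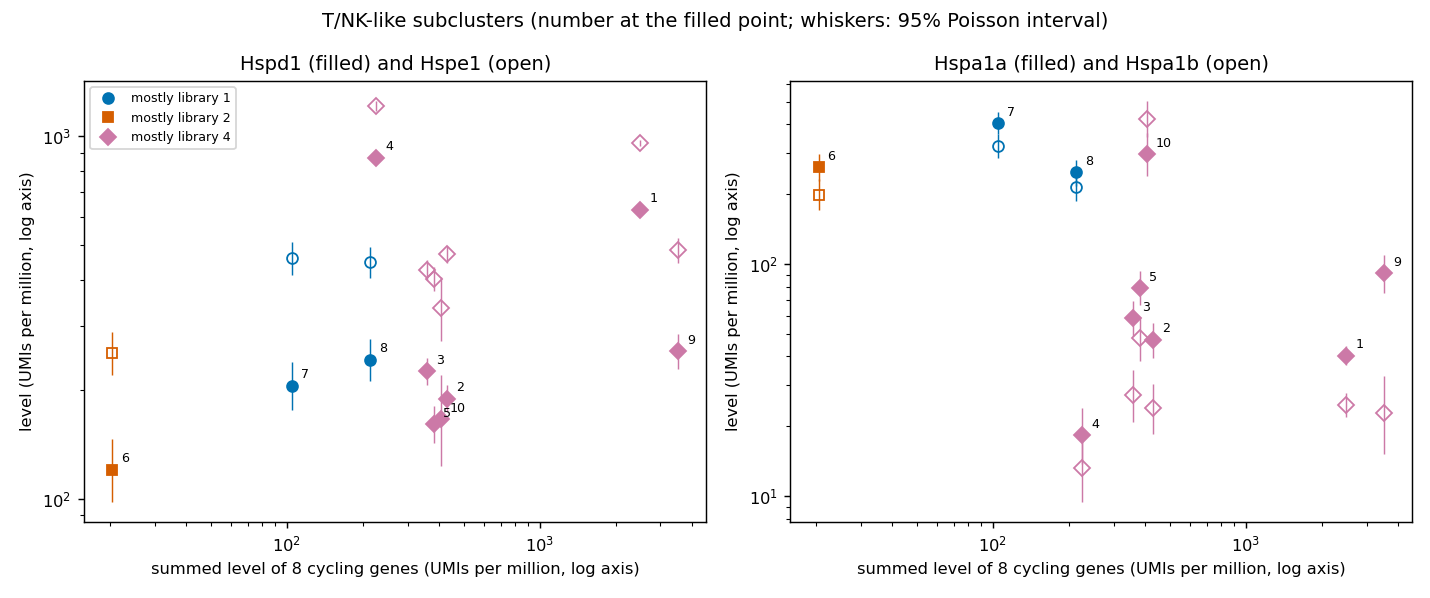
Levels of Hspd1 and Hspe1 (left) and of Hspa1a and Hspa1b (right) in the 10 T/NK-like subclusters, in CPM, against the summed level of 8 cycling genes, both axes logarithmic, coloured by the library with the most cells and with whiskers for the 95% Poisson interval. Subcluster 4 is at the top on the left and at the bottom on the right, and subcluster 9, farthest to the right, stands at 255 for Hspd1, below subclusters 1 and 4.

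The chaperonin genes spread less over the libraries in the other classes that all 4 hold. In endothelial-like cells Hspd1 stood at 90.8, 203, 113 and 150.2 and Hspe1 at 127, 335, 210.4 and 368 CPM in libraries 1 to 4, lowest in library 1. In macrophage-like cells the levels were 91.4, 309, 121 and 106 and 230.4, 490.3, 303 and 302 CPM, with library 2 highest. In T/NK-like cells they were 239, 118, 272 and 505 and 441, 236, 504 and 807 CPM, with library 4 highest and library 2 lowest, while cycling genes summed to 596, 17.4, 372 and 1592 CPM. Against library 1, library 4 was higher for both Hspd1 and Hspe1 in 4 of 4 shared classes. It was lower for Hspa1a and Hspa1b in 3 of the 4, the exception being fibroblast-like cells. The same count over all genes was not made.

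The 2 pairs can be set side by side over the 35 groups of 1 class in 1 library. The levels, as log2(CPM + 10), gave a Pearson r of 0.954 for Hspa1a with Hspa1b and 0.932 for Hspd1 with Hspe1, but 0.177 for Hspa1a with Hspe1. Without the erythroid-like group (34 groups) these were 0.948, 0.903 and -0.0531. Groups share libraries and depth, so these values are descriptions. Hspa1a went with Dnajb1 at 0.662 and with Hspb1 at 0.593 over the 34 groups, Hsph1 with Hsp90aa1 at 0.787 and Hspd1 with Hspa8 at 0.687. Over all 35, the summed level of Hspa1a and Hspa1b gave 0.635 with immediate early genes and 0.1 with cycling genes. That of Hspd1 and Hspe1 gave 0.0189 and 0.291. It also gave 0.925 with TRiC, 0.874 with HSP90 and cochaperones, 0.863 with the other mitochondrial chaperones and proteases and 0.661 with endoplasmic reticulum chaperones. For Hspa1a plus Hspa1b the values in that order were 0.324, 0.446, 0.339 and 0.517. The values for lists are not given without the erythroid-like group.

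**Figure D5:**
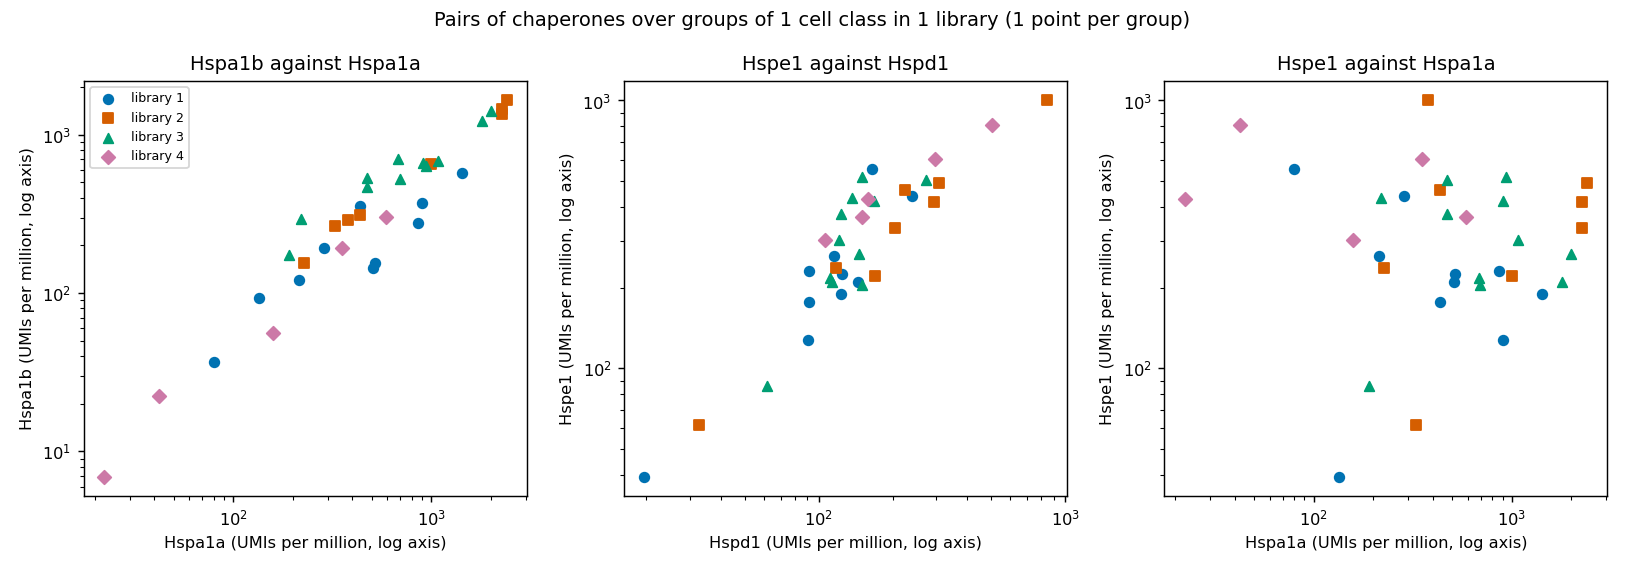
Levels in CPM, on log axes, of Hspa1b against Hspa1a, Hspe1 against Hspd1, and Hspe1 against Hspa1a, with 1 point for each of the 34 groups of 1 class in 1 library without erythroid-like cells, coloured by library. The first 2 panels follow a line and the third does not. The points of libraries 1 and 4 mostly lie lower for Hspa1b at a given level of Hspa1a than those of libraries 2 and 3.

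Of 6653 other genes compared over the 35 groups, those whose level was most like Hspa1a plus Hspa1b were Anxa3 (r = 0.8), Pea15a (0.799), Ctnnd1 (0.792), Luzp1 (0.79) and Fam129b (0.789). For Hspd1 plus Hspe1 they were C1qbp (0.952), 1810022K09Rik (0.949), Rps2 (0.948), Eif3i (0.941) and Npm1 (0.94). The likeness was thus higher throughout the second set than in the first. All of these values include the erythroid-like group and are not given without it. C1qbp, a mitochondrial matrix protein, peaked in fibroblast-like cells of library 2 at 466 CPM, the same group as Hspd1 and Hspe1, and so did Npm1, a nucleolar protein, at 2517 CPM.

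Other chaperone systems were read from gene lists without the 9, counting genes at least 2-fold apart between libraries, with the backgrounds given above for endothelial-like, macrophage-like and fibroblast-like cells in that order. HSF1 and its regulators showed 0 of 2, 0 of 1 and 0 of 2 genes tested that far apart. Hsf1 itself was nearly level, at 30.3, 30.6, 29.97 and 27.5 CPM in endothelial-like cells of libraries 1 to 4, and Hsbp1, which binds HSF1, had 147 CPM there over all libraries. Other cytosolic HSP70 and HSP110 genes gave 1 of 4, 0 of 4 and 2 of 4, with Hspa4 at 98.9 and Hspa14 at 45.2 CPM in endothelial-like cells. The other J-domain proteins gave 1 of 9, 2 of 7 and 3 of 9. Among them Dnaja1 was 907 CPM in endothelial-like and 276 CPM in macrophage-like cells, and Dnajb6 218 and 124 CPM. BAG exchange factors gave 0 of 4, 1 of 3 and 0 of 4, and the gene that far apart in macrophage-like cells was Bag3, which had 157 CPM in endothelial-like and 11.8 CPM in T/NK-like cells. Bag1 was highest in cardiomyocyte-like cells at 580.4 CPM.

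HSP90 and its cochaperones gave 3 of 13, 2 of 13 and 8 of 13, with median ratios of 1.49, 1.83 and 2.06 beside 1.49, 1.55 and 1.75 over all genes. In fibroblast-like cells 12 of its 13 genes were highest in library 2, beside 34.5% of all genes tested, among them Hsp90ab1 at 2969.8 and Ptges3 at 303 CPM. TRiC subunits gave 2 of 7, 3 of 7 and 7 of 7, and in fibroblast-like cells all 7 tested were highest in library 2, where Cct2 stood at 501 and Cct5 at 482 CPM beside 128 and 139 CPM in library 1. Mitochondrial chaperones and proteases gave 0 of 7, 2 of 6 and 5 of 9. Hspa9, the mitochondrial HSP70, stood at 421 CPM in fibroblast-like cells of library 2 and 97.98 CPM in those of library 1, and its exchange factor Grpel1 at 141 and 51.2 CPM. The fibroblast-like cells of library 2 were thus high for HSP60, HSP10, TRiC and the mitochondrial HSP70 system at once. Nearly all of them formed cluster 17, so library and cluster cannot be told apart for these lists either.

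Endoplasmic reticulum chaperones went by another order than the inducible pair in endothelial-like and fibroblast-like cells. They gave 10 of 13, 10 of 13 and 10 of 14 genes at least 2-fold apart, and 12 of 13 in endothelial-like and 13 of 14 in fibroblast-like cells were highest in library 4, beside 21.9% and 14.7% of all genes tested. In macrophage-like cells 13 of 13 were highest in library 2, beside 36.6% of all genes, and library 2 led there for Hspa1a and Hspa1b too. Calr stood at 444, 738, 464 and 1347 CPM in endothelial-like cells of libraries 1 to 4. Hspa5 (BiP) stood at 764, 1113, 705 and 1207 CPM. In library 4, 636 of 637 endothelial-like cells lay in cluster 21 and 560 of 566 fibroblast-like cells in cluster 22, led by Timp1 and Cxcl14. Library 4 and these clusters cannot be told apart. Small heat shock proteins other than Hspb1 gave 1 of 1, 1 of 2 and 2 of 3. Cryab, the lens and muscle crystallin, was 6174 CPM in cardiomyocyte-like, 1594 CPM in Schwann-like and 54.8 CPM in endothelial-like cells, so that it and Hspb1 led in different classes, and Hspb11 was 42.5 CPM in fibroblast-like cells.

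Genes that answer handling, cycle or leak from broken cells were read in the same way. Immediate early genes gave 13 of 14, 10 of 14 and 14 of 14 genes at least 2-fold apart, and 13 of the 14 tested were highest in library 1 in each of the 3 classes, beside 27.5%, 14.3% and 29.02% of all genes tested. In that library Junb reached 4988 and Fos 3604 CPM in endothelial-like cells. Cycling genes gave 3 of 4, 2 of 2 and 1 of 1, with Mki67 and Top2a at 314 and 341 CPM in T/NK-like cells. The granulocyte transcripts S100a8 and S100a9 summed to 50.9, 1567, 26.1 and 82.7 CPM in endothelial-like cells of libraries 1 to 4. Hemoglobin transcripts (Hbb-bs, Hba-a1 and their partners) summed to 17145, 11246, 6999 and 5913 CPM and cardiomyocyte transcripts to 741, 325, 347 and 107 CPM in the same cells. The granulocyte list gave 2 of 2, 2 of 2 and 2 of 2 genes at least 2-fold apart in the 3 classes, the red cell list 4 of 4, 4 of 4 and 4 of 4, and the cardiomyocyte list 8 of 8, 1 of 1 and 2 of 2. The part of free RNA in the chaperone levels was not tested.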

How the data were processed

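Single-cell libraries of 4 mouse heart grafts were sequenced by the authors and deposited as 1 merged matrix of UMI counts, made with Cell Ranger 3.0.0 (per the file headers) on mm10 with Ensembl 92 annotation (per the study's methods). The deposited gene and barcode lists hold other values, namely identifiers and symbols and barcodes with a library suffix. Depth per library is given with the results.

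The study's filter (more than 200 genes detected, mitochondrial share below 20%) was applied, mitochondrial genes were removed, and the 5% of barcodes per library most like simulated doublets (50 neighbours) were left out. Cells were clustered (2000 variable genes without the 9 chaperones, the other chaperone lists and the immediate early genes, 10 principal components, 30 neighbours, Leiden resolution 0.8) with Python 3.11.15, scikit-learn 1.9.0, igraph 0.11.9 and leidenalg 0.10.2. A cluster was named where at least 3 markers and 40% of a list were each found in 10% of its cells and at least 2-fold above the other clusters. The 40% was added after the clusters were seen. Such a cluster still stayed unnamed where its 10 leading genes held more markers of another class than of its own. The same held where its relative median depth was under 1/3 and none of its own markers led. These rules left clusters 15, 19 and 28 unnamed.

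A level is the pooled UMIs of a gene per 1000000. Groups held at least 50 cells. A gene was tested between classes from 50 CPM and between libraries from 20 CPM, and was called where (highest + 10 CPM) was at least 2 times (lowest + 10 CPM), without a p-value. Barcode suffixes are not mapped to grafts, so the libraries have no group, and no comparison of the graft types was made. Cells of a library are not replicates. The calls and the doublet score were tested on simulated data.

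Named genes are the 9, the 2 most abundant of each list, and the 5 most like each pair. The members and lists were chosen with earlier results of these data known. One of the lists is not reported here. Alternatives varied the filters, doublets, clustering, libraries, depth, denominator, pseudocount, threshold and thinning.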

Additional observations from a re-analysis of the deposited data

Results flagged for a closer look

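Among the 9198 barcodes that the filter left out, which enter no comparison above, Hspa1a plus Hspa1b stood at 1206 CPM and Hspd1 plus Hspe1 at 416 CPM over all libraries, above what 3 counts would give. The kept cells had 1233 and 551 CPM. The left-out barcodes had a median of 1071 UMIs.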

How the results depend on the processing

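Called at 3-fold, the chaperones apart between libraries numbered 2 in endothelial-like, 4 in macrophage-like and 3 in fibroblast-like cells, beside 8.95%, 12.1% and 17.7% of all genes. With groups of at least 200 cells, which leaves library 2 out of the macrophage-like cells, there were 3 there. Leaving out 1 library at a time gave 4 to 7 in endothelial-like, 2 to 7 in macrophage-like and 2 to 7 in fibroblast-like cells. The count of 2 in macrophage-like cells came with new clustering, without library 2 (3 with the clusters kept) and without library 3, and that of 2 in fibroblast-like cells with new clustering without library 3. Without library 3, new clustering left library 2 with no such groups of 50 cells. With the clusters kept, the counts without library 3 were 7 and 6. The share of all genes that far apart also moved with the libraries compared, as given above for macrophage-like and fibroblast-like cells. Counts given here without that share do not by themselves measure stability. Where it gave a value, no alternative turned a direction between libraries in these classes, and none moved the count of 9 between classes. T/NK-like cells stayed highest for Hspd1 in 13 and granulocyte-like cells lowest in 14 of 14 alternatives, and pericyte-like cells stayed highest for Hspa1a in 11 of 14. The exception for Hspd1 was new clustering without library 4, which put fibroblast-like cells highest. Less stable were Hspa8, with endothelial-like cells highest in 10, Hspb1, with T/NK-like cells lowest in 8, and Hsph1, with lymphatic endothelial-like cells highest in 5 and granulocyte-like cells lowest in 7 of 14. Of 1377 levels under the alternatives, 143 moved over 1.5-fold. Schwann-like, pericyte-like, smooth muscle-like, lymphatic endothelial-like and erythroid-like cells had no value under some alternatives, since their clusters were not named there. Keeping the clusters and leaving out erythroid-like cells were chosen after seeing the data. No paired analysis was possible because the barcode suffixes are not mapped to grafts. Depth limits the small groups most, such as B-like cells of library 4, where Hspa1b stood at 6.87 CPM.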

Other observations

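The 5 unnamed clusters also differed in their chaperones. Cluster 15 (1053 cells, 81.5% from library 2) was led by Arg1, Ccl24 and Ccl9 and carried 8 of the 12 macrophage markers. It had 595 CPM of Hspa1a, 182 of Hspd1 and 269.7 of Hspe1. Cluster 13 (1269 cells), with Ccr7 and Flt3 among its leading genes, had 479.6 CPM of Hspa1a and 403 of Hspe1. Cluster 19 (783 cells, nearly all from library 4), which carried 6 of the 8 granulocyte markers, had 47.04 CPM of Hspa1a and 66.8 of Hspd1. Cluster 28 (145 cells), led by Acta1 and Ankrd1 with Cryab next, had 144 CPM of Hspa1a and 2517 of Hspb1. Cluster 16 (1007 cells, all from library 2) had 1910.2 CPM of Hspa1a, 955 of Hspb1 and 315 of Hspd1.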
